A study of Mus musculus with 30 samples.

Results

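Imprinted genes were followed in nascent RNA of mouse embryonic stem cells over 48 h after addition of auxin and dTAG13, the ligands used to degrade degron-tagged proteins. A list of 43 genes known to be expressed from 1 parental chromosome was matched by symbol to the gene rows of the deposited table, and all 43 were present among 20541 genes. By position they fell into 17 clusters on 9 chromosomes, joining genes whose starts lay at most 3 Mb apart: 9 clusters held 2 or more of the genes and 8 held 1. Of the 43, 40 had a mean of at least 10 scaled reads over all libraries and were tested; Rtl1, Dio3 and Rasgrf1 did not.

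All samples were 1 line, which the labels name dTKO, with the genotype Suv39h1fl/fl; Suv39h2-/-; Setdb1fl/fl. These genes encode methyltransferases for lysine 9 of histone H3, and the 0 h baseline carries the same alleles as every later time. Cells were kept on gelatin in medium with LIF and serum, and received 100 µg/ml auxin together with 0.5 µM dTAG13 for 0, 3, 12, 24 or 48 h, with 3 biological repeats per time. In TT-seq, cells are given 4-thiouridine (here 1 mM for 10 min) and the RNA that took it up is isolated and read, so the signal of a gene reflects its transcription at that time, introns included. No untreated culture was carried alongside to the later times in the samples used here, so time in culture and treatment cannot be told apart.

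A value below is scaled reads: reads over the whole gene divided by 1 size factor per library. Levels of different genes are compared only as scaled reads per kb of gene. Changes are fitted differences of log2(scaled reads + 1) against 0 h from limma, called at a Benjamini-Hochberg adjusted p under 0.05 over 15261 genes. Under the deposited scaling the median change of all genes was -0.24, 0.18, -0.08 and -0.37 on the log2 scale at 3, 12, 24 and 48 h. Each change is therefore also given after rescaling the libraries over genes. A rescaled change is relative to the typical gene. The libraries held 37.1 M to 42.3 M reads (M, mega) over all units, and 16.4 M to 22.9 M in genes other than the ribosomal precursor Rn45s. Nascent transcription of the targeted genes does not check the loss of their proteins: Setdb1 stood at 846 ± 24.9 scaled reads at 0 h and 732 ± 46.3 after 48 h, and Suv39h1 at 483 ± 36.3 and 455 ± 23.3 (SD, n = 3 each). In bulk RNA, fewer cells transcribing a gene and less transcription per cell cannot be told apart, and the values do not separate the 2 parental alleles.

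Genomic imprinting is set in the germ line, where methylation of CpG sites in an imprinting control region marks the copy from 1 parent. The mark is kept in the embryo and in embryonic stem cells by the zinc finger protein ZFP57, which binds the methylated hexamer TGCCGC and brings TRIM28, SETDB1 and lysine 9 methylation of histone H3 to that copy. Within a cluster the control region then acts at a distance, as a CTCF-bound insulator between Igf2 and H19, or as the promoter of a long non-coding RNA (Kcnq1ot1, Airn) that silences its neighbours on the same chromosome. In the placenta some of these neighbours, among them Phlda2 and Slc22a18, carry repressive histone marks on the silent copy.

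At 0 h the 40 tested imprinted genes ranged from 0.213 scaled reads per kb for Kcnq1 to 182 ± 11.2 for Peg10 (SD, n = 3). Their median was 17.5 against 16.7 over all genes tested. Peg10, a gene derived from a retrotransposon and needed for the placenta, stood above Mcts2 at 124 ± 18.7, Mest at 107 ± 4.29 and Impact at 105 ± 5.06, and these last 3 did not differ beyond their spread. Peg3 followed at 90.4 ± 1.95 per kb. At the other end, Asb4 at 0.510 per kb, Calcr at 0.489 and Slc22a18 at 0.910 were near silent. Rtl1, also retrotransposon-derived, had 0, 0 and 1.71 scaled reads in the 3 libraries at 0 h and 0, 0.775 and 0 after 48 h. Dio3, which inactivates thyroid hormone, had 4.06, 4.99 and 5.14 scaled reads at 0 h and 6.65, 5.42 and 6.11 after 48 h. Rasgrf1, an exchange factor for Ras, had 9.75, 6.65 and 9.43 at 0 h and 18.5, 10.8 and 7.64 after 48 h, and its groups overlapped. Some members share sequence with each other in the genome: Mcts2 lies within H13 on the same strand, so nascent reads of H13 may be counted in it. Kcnq1ot1 lies within Kcnq1 on the other strand, and Kcnq1 stood at 0.213 scaled reads per kb where Kcnq1ot1 stood at 43.1 per kb.

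At 48 h, 7 of the 40 imprinted genes rose and 22 fell, where 7.65% of all genes tested rose and 58.4% fell. The 7 were Asb4, Calcr, Igf2, Peg10, Inpp5f, Airn and Ndn, and each was also called up after rescaling. Of the 22, 10 were also called down after rescaling (Slc22a18, Phlda2, Zim1, Plagl1, Meg3, Impact, Ppp1r9a, Peg3, Usp29 and Kcnq1ot1), 11 were not called, and Copg2 was called up. After rescaling the counts were 13 up and 10 down, where 29.6% of all genes were up and 29.2% down. The shares of imprinted genes that fell were thus close to those of all genes under both scalings. The median change of the imprinted genes was -0.34 (all genes -0.37), or 0.02 rescaled (all genes -0.0092). A change of at least 2-fold with a call was found for 3 genes upward and 2 downward (3.03% and 6.5% of all genes): Asb4, Calcr and Igf2, and Slc22a18 and Phlda2. All 3 libraries after 48 h lay above all 3 at 0 h for 8 imprinted genes (9.62% of all genes) and below them for 27 (69.6%). Of the 29 genes called, 18 kept the call in each of 6 fits that left out 1 library of either time.

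**Figure D1:**
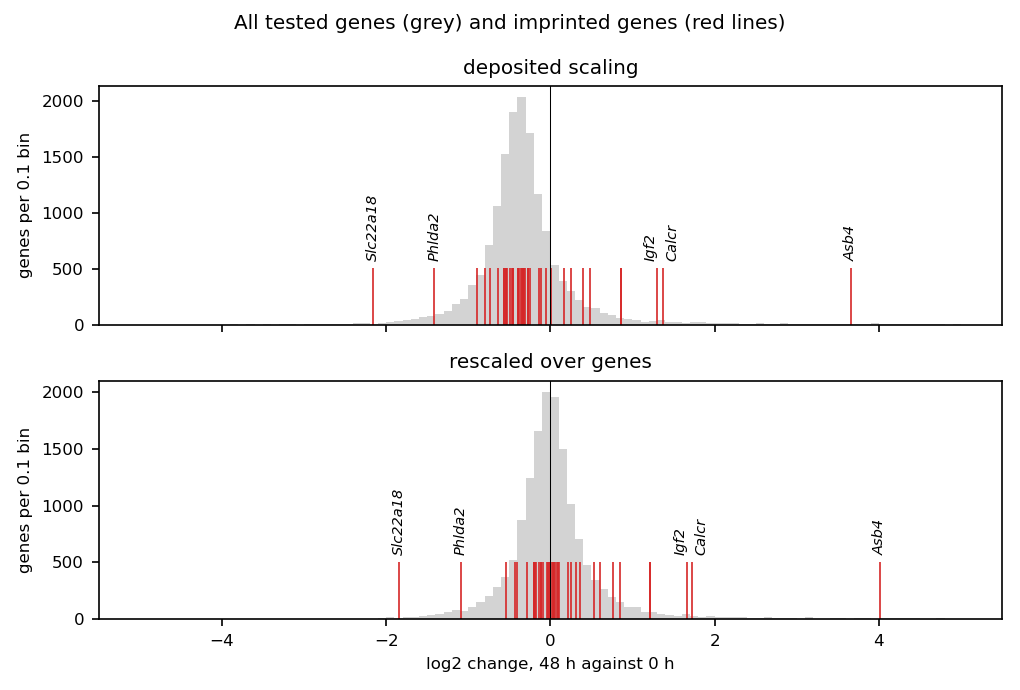
Histogram of the log2 change after 48 h against 0 h of the 15261 genes tested (grey, number of genes per bin of 0.1, with values past -5 or 5 gathered in the outermost bins), with 1 red line for each of the 40 imprinted genes tested, under the deposited scaling (top) and after rescaling over genes (bottom). Most imprinted genes lie within the body of the distribution; Asb4 at 3.66 and Slc22a18 at -2.15 (top) lie at its edges.

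The promoters of Asb4 and Inpp5f, which rose, and of Slc22a18 and Phlda2, which fell by over 2-fold, are shown because CpG-poor and CpG-rich promoters occur in both directions of change. Sequences are from RefSeq on GRCm38.p6, 250 bases before to 50 after the start of transcription, 5′ to 3′ on the gene's strand, with CpG in capitals. Asb4 (chr6:5383136-5383435, plus strand) holds 6 CpG and Inpp5f (chr7:128611115-128611414, plus strand) 15. Slc22a18 (chr7:143473539-143473838, plus strand, its start 34 bases from that in the deposited table) holds 2 and Phlda2 (chr7:143502475-143502774, minus strand) 26. Over all 32851 promoters in the same windows the median was 7 CpG, and over the 53 promoters of the 36 imprinted genes that matched it was 14.
Asb4: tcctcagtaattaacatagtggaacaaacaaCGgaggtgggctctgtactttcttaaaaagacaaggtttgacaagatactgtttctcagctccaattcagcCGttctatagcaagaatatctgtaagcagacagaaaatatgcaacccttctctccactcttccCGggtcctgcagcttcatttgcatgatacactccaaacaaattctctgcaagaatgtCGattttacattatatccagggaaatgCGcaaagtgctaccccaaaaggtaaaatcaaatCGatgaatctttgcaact
Inpp5f: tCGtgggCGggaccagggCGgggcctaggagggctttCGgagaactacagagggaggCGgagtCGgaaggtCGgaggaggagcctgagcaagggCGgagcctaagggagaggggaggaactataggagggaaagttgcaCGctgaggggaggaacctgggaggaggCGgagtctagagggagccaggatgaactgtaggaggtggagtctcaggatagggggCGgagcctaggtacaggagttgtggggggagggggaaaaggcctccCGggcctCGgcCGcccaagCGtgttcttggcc
Slc22a18: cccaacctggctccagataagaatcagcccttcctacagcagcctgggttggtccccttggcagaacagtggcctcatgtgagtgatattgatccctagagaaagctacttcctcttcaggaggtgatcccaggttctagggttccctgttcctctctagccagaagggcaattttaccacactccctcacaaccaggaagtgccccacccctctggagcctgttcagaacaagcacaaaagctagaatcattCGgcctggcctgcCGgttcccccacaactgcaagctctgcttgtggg
Phlda2: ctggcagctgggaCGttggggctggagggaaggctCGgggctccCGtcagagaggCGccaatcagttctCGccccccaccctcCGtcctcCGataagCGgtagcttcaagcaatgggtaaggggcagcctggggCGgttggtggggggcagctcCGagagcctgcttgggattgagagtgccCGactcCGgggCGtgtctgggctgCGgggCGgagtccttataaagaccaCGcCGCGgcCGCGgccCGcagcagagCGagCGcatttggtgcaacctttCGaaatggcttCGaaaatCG

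The hexamer TGCCGC, searched on both strands (as TGCCGC or GCGGCA), was in 12 of the 53 promoter windows of imprinted genes (22.6%, in 11 genes) and in 11.6% of all promoter windows. The 11 genes were Mest, Calcr, Igf2, Zim1, Plagl1, Meg3, Copg2, Snrpn, Mcts2, Nnat and Grb10. Mest is counted with 2 windows that are nearly the same sequence, their starts 4544 and 4547 bases from its first start. The hexamer itself holds a CpG, and windows of imprinted genes had a median of 14 CpG against 7 over all. The 2 shares are thus not compared at like CpG content, and no enrichment was tested. The downstream start of Mest, whose methylated copy is the maternal one, is shown because its window (chr6:30737800-30738099, plus strand, 4544 bases from the first start of the gene) holds 2 matches, in capitals below; a downstream start of Calcr, 1090 bases from its first, also holds 2. Mest itself encodes a hydrolase-like protein of mesoderm.
Mest: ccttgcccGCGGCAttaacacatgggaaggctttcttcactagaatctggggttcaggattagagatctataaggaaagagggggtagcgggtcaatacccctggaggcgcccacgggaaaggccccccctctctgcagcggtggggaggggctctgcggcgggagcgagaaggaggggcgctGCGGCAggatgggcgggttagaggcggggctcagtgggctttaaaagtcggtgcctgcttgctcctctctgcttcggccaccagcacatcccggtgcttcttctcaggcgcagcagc
Neither the Asb4, Inpp5f, Slc22a18 nor Phlda2 window above holds the hexamer. A match is a description of the letters, and binding was not measured here.

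The Peg10 cluster of chromosome 6 held 3 of the 7 genes that rose after 48 h, where 7.65% of all genes rose. It spans 1.75 Mb and includes Calcr, Sgce, Peg10, Ppp1r9a and Asb4. Peg10 and Sgce are expressed from the paternal copy and share a control region between their starts. Asb4, Calcr and Ppp1r9a are expressed mainly from the maternal copy in some tissues.

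Asb4, which encodes an ankyrin repeat adaptor of a ubiquitin ligase (chr6:5383386-5433021, mm10), had 22.8, 27.4 and 25.7 scaled reads in the 3 libraries at 0 h. It had 24.3, 15.9 and 19.4 after 3 h, 107, 130 and 116 after 12 h, 291, 353 and 305 after 24 h, and 308, 335 and 347 after 48 h. Every library from 12 h on lay above every library at 0 h, and most of the gain was reached by 24 h. The change was 2.17 after 12 h, 3.59 after 24 h and 3.66 after 48 h (SE 0.16, limma adjusted p = 3.53e-116 after 48 h), or 4.01 rescaled. Per kb, Asb4 went from 0.510 to 6.65, still below the median imprinted gene at 0 h.

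Of the non-coding units that the authors listed within 100 kb of imprinted genes, 9 tested were nearest to Asb4. All 9 rose after 48 h, where 29.3% of all non-coding units tested rose. Adjacent units of 1 region are not independent, and a unit low at 0 h can pass the filter on the mean through the late times. The count is thus a description. Of the 9, 4 lay upstream on the same strand. The unit 3.79 kb upstream went from 38.7 scaled reads at 0 h to 139 after 12 h, 308 after 24 h and 271 after 48 h (means, n = 3; 2.80 on the log2 scale after 48 h). The unit 15.2 kb upstream went from 46.2 to 152, 322 and 285, and the unit 27.0 kb upstream from 171 to 493, 1152 and 1319. All of these, like Asb4, had most of their gain by 24 h. At 48 h the unit 27.0 kb upstream was at 59.4 scaled reads per kb, where Asb4 was at 6.65. Downstream of Asb4, on the same strand, 2 copies of the endogenous retrovirus MMERVK10C-int rose. The copy 44.0 kb from its end had 0, 5.82 and 0 scaled reads at 0 h and 120, 141 and 170 after 48 h. Reads of repeats with several positions in the genome may be placed on any copy, so single copies are uncertain. The neighbours Pon2, a paraoxonase, and Pdk4, which inhibits pyruvate dehydrogenase, also rose: Pon2 from 120 ± 6.16 to 221 ± 14.6 scaled reads (0.87, SE 0.14, limma adjusted p = 5.77e-09) and Pdk4 from 67.5 to 112 (0.75, adjusted p = 8.26e-06). Rescaled, they rose by 1.23 and 1.11.

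**Figure D2:**
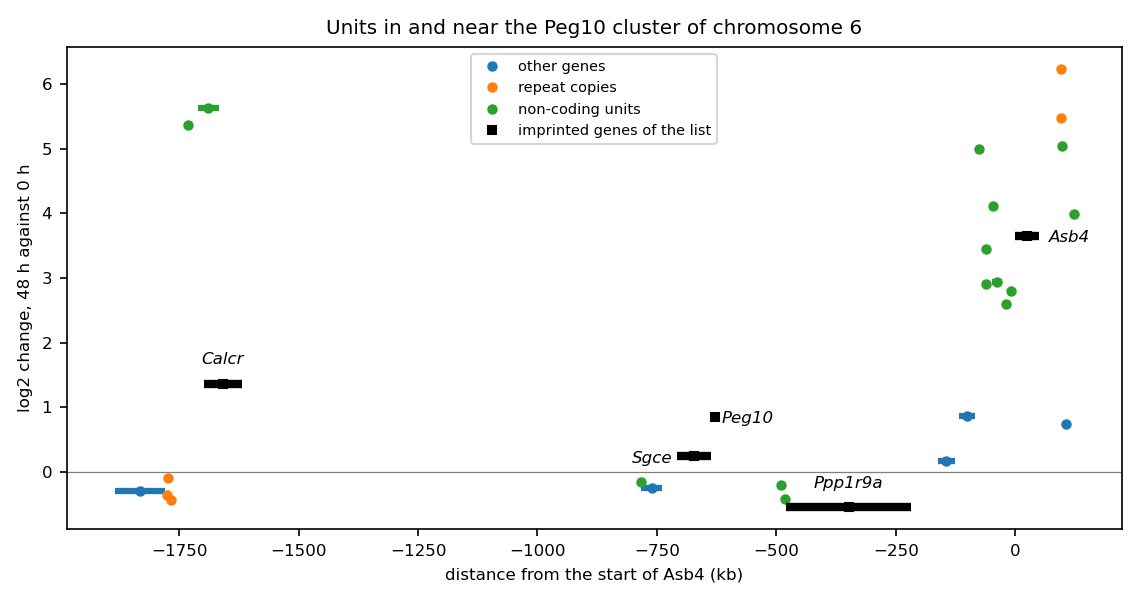
Log2 change after 48 h against 0 h (vertical axis) of imprinted genes of the list (black), other genes (blue), repeat copies (orange) and non-coding units (green) within 100 kb of the imprinted genes of the Peg10 cluster, against distance from the start of Asb4 in kb; bars span each unit. The non-coding and repeat units that rose around Asb4 and Calcr lie above 2, while Peg10 lies at 0.86 and Ppp1r9a at -0.54.

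Calcr, the calcitonin receptor (chr6:3685720-3764713, minus strand), was the only imprinted gene called up at all 4 later times under the deposited scaling; after rescaling Inpp5f was as well. It had 34.1, 48.2 and 33.4 scaled reads at 0 h, 52.7, 55.4 and 63.6 after 3 h, 98.9, 118 and 105 after 12 h, 84.0, 81.4 and 90.2 after 24 h, and 103, 103 and 94.0 after 48 h. Libraries at every later time lay above those at 0 h, and the level after 12 h was about that after 48 h. The change was 0.57 after 3 h, 1.47 after 12 h, 1.14 after 24 h and 1.37 after 48 h (SE 0.17, limma adjusted p = 5.58e-15 after 48 h), or 1.72 rescaled after 48 h. At 3 h the call (adjusted p = 0.0113) was lost without the first 0 h library (adjusted p = 0.0724) or without the third one (adjusted p = 0.0854). A non-coding unit on the opposite strand that overlaps the 3′ part of Calcr rose far more, from 19.1 scaled reads at 0 h to 46.4 after 3 h, 403 after 12 h, 823 after 24 h and 981 after 48 h (5.63 on the log2 scale). Whether reads of that unit entered the count of Calcr was not tested.

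Peg10 (chr6:4747306-4760516) had 2308, 2578 and 2337 scaled reads at 0 h and 4290, 4625 and 4159 after 48 h. The groups did not overlap, and Peg10 was the imprinted gene with the most signal per kb at both times, at 182 and 330. Its time course was not monotonic under the deposited scaling: the mean was 1744 ± 167 after 3 h, 2597 ± 445 after 12 h and 2850 ± 396 after 24 h (SD, n = 3). The change after 48 h was 0.86 (SE 0.12, limma adjusted p = 5.82e-11), or 1.22 rescaled. The fall after 3 h (-0.47) was lost without the second library of 0 h (adjusted p = 0.0699) or of 3 h (adjusted p = 0.0955). Sgce, which encodes epsilon-sarcoglycan and starts 102 bases away on the other strand, had 357, 427 and 362 scaled reads at 0 h, 258, 228 and 295 after 3 h, and 446, 460 and 449 after 48 h. It was called down after 3 h (-0.55, SE 0.13, limma adjusted p = 0.0011; -0.31 rescaled), a call lost without the second 0 h library (adjusted p = 0.0514). After 48 h it lay above 0 h in all 3 libraries, but the change of 0.25 was not called (adjusted p = 0.0821); rescaled it was 0.61 and called (limma adjusted p = 6.44e-11). Ppp1r9a, a neuronal actin-binding protein, went the other way, from 3115, 3559 and 3214 to 2168, 2256 and 2350 (-0.54, SE 0.12, limma adjusted p = 4.43e-05; -0.18 rescaled).

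**Figure D3:**
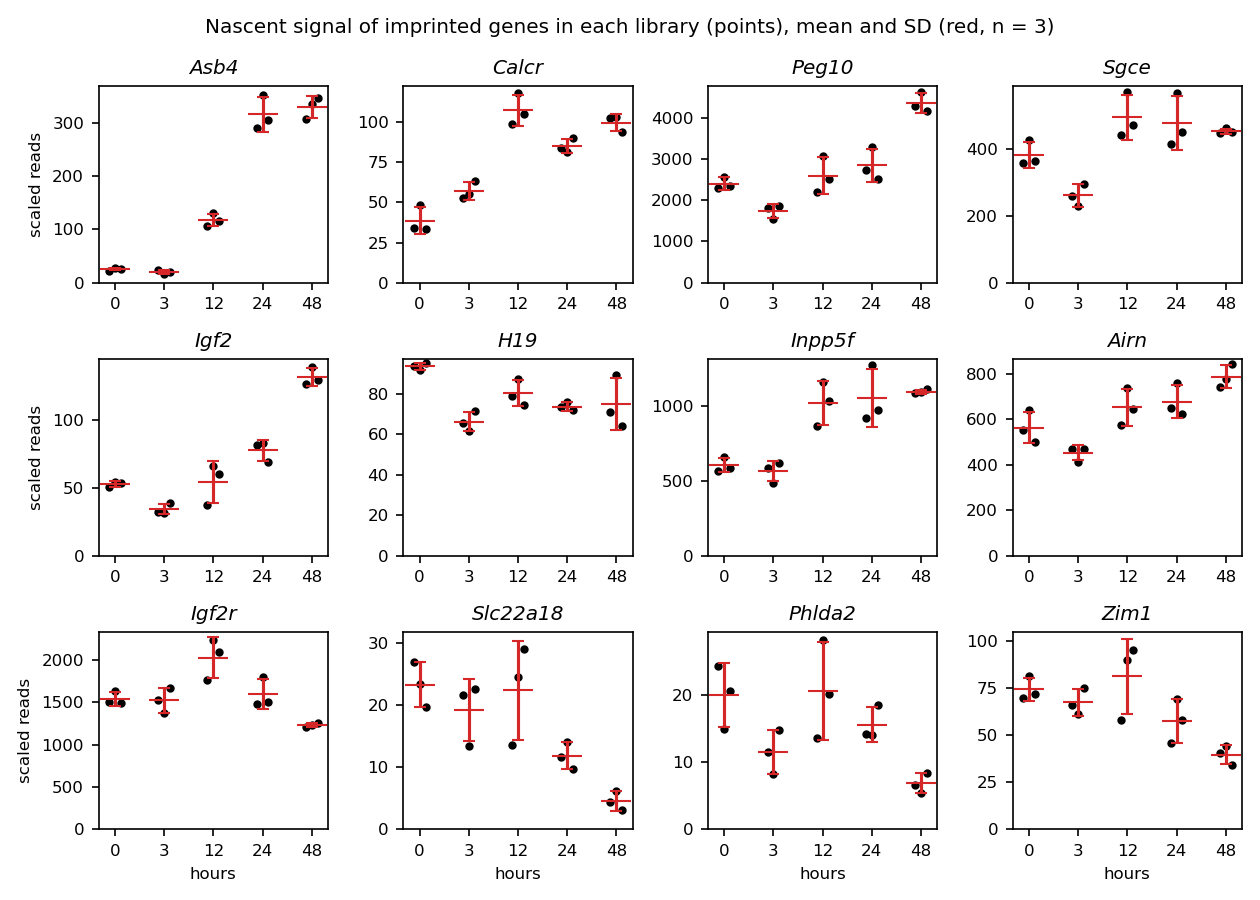
Scaled reads (vertical axes, from 0, not comparable between genes of different length) of 12 imprinted genes in each of the 15 libraries (black points) by hours of treatment, with the mean and SD of the 3 libraries of a time in red. Asb4, Calcr, Igf2, Inpp5f, Airn and Peg10 are higher after 48 h than at 0 h in all 3 libraries; Slc22a18, Phlda2 and Zim1 are lower in all 3.

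In the cluster at the end of chromosome 7, Igf2 rose and Slc22a18 and Phlda2 fell. The cluster has 2 control regions: H19 and Igf2 are governed by a CTCF-bound insulator methylated on the paternal copy, and Kcnq1, Kcnq1ot1, Cdkn1c, Slc22a18 and Phlda2 by the promoter of Kcnq1ot1, methylated on the maternal copy. Of its 7 members 1 rose and 4 fell after 48 h, where 7.65% and 58.4% of all genes did. After rescaling the counts were 1 and 3 (29.6% and 29.2% of all genes). H19 and Cdkn1c were not called.

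Igf2, the insulin-like growth factor of the fetus (chr7:142650768-142666816, minus strand), had 50.4, 54.1 and 54.0 scaled reads at 0 h and 32.4, 31.8 and 38.8 after 3 h. It then had 37.2, 66.4 and 60.5 after 12 h, 81.5, 83.3 and 69.0 after 24 h, and 126, 139 and 130 after 48 h. All libraries after 24 h and 48 h lay above those at 0 h, and those after 3 h lay below. The change was -0.61 after 3 h, 0.55 after 24 h and 1.30 after 48 h (SE 0.17, limma adjusted p = 9.51e-13 after 48 h), or 1.66 rescaled after 48 h. The call after 3 h was lost after rescaling (adjusted p = 0.0543) and without the second 0 h library (adjusted p = 0.0635) or the first or second 3 h library (adjusted p = 0.0535 and 0.078). The call after 24 h was lost without the first library of 0 h (adjusted p = 0.0561) or of 24 h (adjusted p = 0.0551). Igf2os, a transcript on the opposite strand that overlaps Igf2, went from 9.44 to 16.5 scaled reads (0.74, limma adjusted p = 0.0347). The strand setting is not given, and whether reads of 1 of them entered the count of the other was not tested. At Kcnq1, which holds Kcnq1ot1 on the other strand, few such reads were counted. Its mean at 0 h was 68.1 scaled reads, against 3592 for Kcnq1ot1.

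H19, the non-coding RNA that is expressed from the maternal copy and shares enhancers with Igf2, did not rise with it. It had 93.5, 91.5 and 95.2 scaled reads at 0 h and 70.9, 89.1 and 64.2 after 48 h. All 3 libraries were lower, but the change of -0.33 was not called (adjusted p = 0.0639), and rescaled it was 0.03. H19 was called down after 3 h alone (-0.49, limma adjusted p = 0.0281), a call absent after rescaling (adjusted p = 0.185) and kept in 1 of the 6 fits without a library; the adjusted p reached 0.171 without the second 3 h library, and was 0.0744, 0.11 and 0.0868 without the first, the second and the third 0 h library and 0.0944 without the first 3 h library.

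Slc22a18, an organic cation transporter (chr7:143473755-143499332), had 26.8, 23.3 and 19.7 scaled reads at 0 h and 21.6, 13.4 and 22.5 after 3 h. It had 13.5, 24.6 and 29.0 after 12 h, 11.6, 14 and 9.73 after 24 h, and 4.43, 6.20 and 3.06 after 48 h. The libraries of 3 h and 12 h overlapped those of 0 h, while those of 24 h and 48 h were all lower. The change was -0.93 after 24 h and -2.15 after 48 h (SE 0.29, limma adjusted p = 1.75e-12 after 48 h), or -1.84 rescaled after 48 h. The call after 24 h was lost without the first 0 h library (adjusted p = 0.073) or the third 24 h library (adjusted p = 0.0716). The value after 48 h rests on 18 reads over 3 libraries, against 84 at 0 h. Phlda2, a pleckstrin homology protein that restrains placental growth (chr7:143501548-143502524, minus strand), had 24.4, 15.0 and 20.6 scaled reads at 0 h and 6.65, 5.42 and 8.41 after 48 h. Its groups did not overlap either, and its mean was 11.5 ± 3.23 after 3 h, 20.6 ± 7.35 after 12 h and 15.6 ± 2.59 after 24 h (SD, n = 3). The libraries of 3 h, at 11.5, 8.27 and 14.7, were all below those of 0 h, but the change of -0.75 (-0.53 rescaled) was not called (adjusted p = 0.0587). The change after 48 h was -1.41 (SE 0.29, limma adjusted p = 6.65e-06), or -1.09 rescaled, from 72 reads at 0 h and 27 after 48 h.

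Kcnq1ot1, the non-coding RNA of this domain (chr7:143213111-143296547, minus strand), had 3505, 3853 and 3418 scaled reads at 0 h and 2523, 2658 and 2584 after 48 h. All libraries after 48 h were lower, by -0.47 (SE 0.12, limma adjusted p = 0.000401), and rescaled by -0.11 (limma adjusted p = 0.00334). Kcnq1, a potassium channel, had 48.8, 76.5 and 78.9 scaled reads at 0 h and 38.4, 42.6 and 46.6 after 48 h. Its change was -0.64 (SE 0.18, limma adjusted p = 0.00109), and it was not called after rescaling (-0.28, adjusted p = 0.117). Cdkn1c, the inhibitor of cyclin-dependent kinases p57, had 13, 9.98 and 18.9 scaled reads at 0 h, 16.6, 28.1 and 22.1 after 24 h and 7.38, 10.8 and 9.17 after 48 h. It overlapped 0 h at both times and was not called under the deposited scaling (0.65 after 24 h, adjusted p = 0.106; -0.53 after 48 h, adjusted p = 0.0948). Rescaled, Cdkn1c was called up after 24 h (0.72, limma adjusted p = 0.0242) and stood at -0.20 after 48 h.

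Inpp5f, a phosphoinositide phosphatase whose imprinted variant starts within the gene (chr7:128611365-128696436), had 570, 661 and 587 scaled reads at 0 h and 588, 490 and 619 after 3 h. It had 867, 1159 and 1034 after 12 h, 919, 1274 and 971 after 24 h, and 1086, 1093 and 1112 after 48 h. The gain was present after 12 h, and the means were 1020, 1055 and 1097 from then on, with every library from 12 h on above those at 0 h. The change was 0.74 after 12 h, 0.79 after 24 h and 0.86 after 48 h (SE 0.13, limma adjusted p = 1.6e-10 after 48 h), or 1.22 rescaled after 48 h. The values do not separate the imprinted variant from the whole gene. On the opposite strand, 364 bases upstream of Inpp5f, a non-coding unit had 0.813, 0 and 1.71 scaled reads at 0 h and 215, 291 and 240 after 48 h. Only 3 reads supported it at 0 h, so its ratio of 297 carries a 95% counting interval of 101 to 1444. Within that unit, a copy of the retrovirus IAPEz-int 3.03 kb from Inpp5f had no read at 0 h and 71.6, 77.5 and 110 scaled reads after 48 h, at least 103-fold higher, taking 3 reads in the 3 libraries of 0 h together as the floor.

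Airn, the non-coding RNA of the Igf2r cluster that starts in an intron of Igf2r and is transcribed against it from the paternal copy (chr17:12741311-12859884), had 554, 640 and 501 scaled reads at 0 h and 743, 778 and 844 after 48 h. All libraries after 48 h were higher, by 0.49 (SE 0.13, limma adjusted p = 0.000435), or 0.85 rescaled. Igf2r, the receptor that clears IGF2, had 1502, 1631 and 1487 scaled reads at 0 h, 1761, 2234 and 2096 after 12 h and 1207, 1228 and 1255 after 48 h. It lay above 0 h after 12 h and below it after 48 h. Its fall of -0.32 (limma adjusted p = 0.0169) was 0.04 rescaled and was not called; it was also lost without the second 0 h library (adjusted p = 0.0816) or the first 48 h library (adjusted p = 0.0601).

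Among the remaining genes that fell under both scalings were those of the Peg3 cluster, all 3 of them. Of all genes 58.4% fell, or 29.2% after rescaling. Zim1, a zinc finger gene expressed from the maternal copy, had 69.9, 81.5 and 72.0 scaled reads at 0 h and 40.6, 44.2 and 34.4 after 48 h (-0.89, SE 0.17, limma adjusted p = 1.74e-06; -0.54 rescaled). Peg3, a paternally expressed zinc finger gene, went from 2231, 2244 and 2156 to 1481, 1621 and 1599 (-0.50, SE 0.12, limma adjusted p = 0.00021; -0.14 rescaled). Usp29, which shares the bidirectional promoter of Peg3, went from 495, 535 and 475 to 343, 339 and 353 (-0.54, SE 0.13, limma adjusted p = 0.000124; -0.18 rescaled). All 3 genes were thus lower in all libraries after 48 h, Zim1 by the most. Downstream of Usp29, a copy of MMERVK10C-int rose from a mean of 9.89 scaled reads to 1835, and 6 of the 7 non-coding units tested nearest to Usp29 rose (29.3% of all such units). As near Asb4, units low at 0 h can pass the filter through the late times, so this count is a description.

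Plagl1, a zinc finger regulator of fetal growth, had 347, 361 and 360 scaled reads at 0 h and 216, 193 and 206 after 48 h. Every library after 48 h was lower, by -0.80 (SE 0.13, limma adjusted p = 2.93e-08), or -0.43 rescaled. Impact, a regulator of translation, went from 2063, 2273 and 2174 to 1396, 1510 and 1499, by -0.56 (SE 0.12, limma adjusted p = 2.53e-05), or -0.20 rescaled.

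In the Dlk1 and Meg3 cluster of chromosome 12, a control region methylated on the paternal copy separates the protein-coding Dlk1 from maternally expressed non-coding RNAs. After 48 h, 3 of the 4 tested genes of this cluster fell (58.4% of all genes), or 1 after rescaling (29.2% of all genes). Meg3 had 1557, 1894 and 1559 scaled reads at 0 h and 1060, 1154 and 1165 after 48 h (-0.56, SE 0.12, limma adjusted p = 2.77e-05; -0.20 rescaled). All its libraries were lower after 48 h. Rian, a host of small nucleolar RNAs, fell by -0.36 and Mirg, a host of microRNAs, stood at -0.25 with no call; rescaled they stood at -3.02e-06 and 0.11. The call of Rian (limma adjusted p = 0.00671) was lost without the second 0 h library (adjusted p = 0.0946) or the first 48 h library (adjusted p = 0.0577). Dlk1, a membrane ligand of the Notch family, had 13, 21.6 and 13.7 scaled reads at 0 h, 4.16, 15.9 and 7.08 after 24 h, and 5.91, 12.4 and 9.93 after 48 h. The change was -0.91 after 24 h, when the groups overlapped, and -0.73 after 48 h (SE 0.30, limma adjusted p = 0.0248). The 48 h call was absent after rescaling (-0.40, adjusted p = 0.259) and without the second 0 h library (adjusted p = 0.185) or the first 48 h library (adjusted p = 0.221). The 24 h call was lost without the second 0 h library (adjusted p = 0.198) or the first or the third 24 h library (adjusted p = 0.37 and 0.0693).

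In the Prader-Willi and Angelman cluster of chromosome 7, 1 of 6 genes rose and 2 fell (7.65% and 58.4% of all genes). After rescaling the counts were 2 and 0 (29.6% and 29.2% of all genes). Ndn, a MAGE family gene, rose by 0.40 (47.1, 52.4 and 40.3 scaled reads at 0 h; 54.6, 67.4 and 63.4 after 48 h; limma adjusted p = 0.0387), or 0.76 rescaled, and kept its call in 2 of the 6 fits without a library. The adjusted p of Ndn was 0.0659 and 0.179 without the first and the third 0 h library, and 0.135 and 0.0943 without the second and the third 48 h library. Snrpn, a spliceosome gene, and Ube3a, a ubiquitin ligase whose paternal copy is silenced in neurons, fell by -0.40 and -0.35 and stood at -0.04 and 0.01 rescaled, with no call. Ube3a also lost its call without the second 0 h library (adjusted p = 0.0592). Magel2, Mkrn3 and Peg12 were not called, at -0.46, -0.11 and -0.27.

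For the other genes, Nnat aside, the call after 48 h depended on the scaling. Zrsr1, Sfmbt2, Mcts2, Blcap and Mest fell by between -0.30 (Zrsr1) and -0.45 (Mcts2) and were at -0.09 to 0.06 rescaled, with no call. Each of these 5 calls was lost when 1 library was left out, up to an adjusted p of 0.163 for Zrsr1 without the second 0 h library, 0.0527 for Sfmbt2 without the same library, 0.0986 for Mcts2 without the third 0 h library, and 0.118 for Blcap and 0.0661 for Mest without the first 48 h library. Grb10, a growth-restraining adaptor, H13, Gnas and Mkrn3 were not called under the deposited scaling and were called up after rescaling (0.53, 0.22, 0.31 and 0.25), as was Sgce. Copg2 was called down by -0.27 (limma adjusted p = 0.0484) and up by 0.09 rescaled; its fall was kept in 1 of the 6 fits without a library, the adjusted p reaching 0.186 without the second 0 h library. Nnat, a membrane proteolipid within an intron of Blcap, stood at 42.3 ± 8.13 and 42.2 ± 4.16 scaled reads (SD, n = 3).

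**Figure D4:**
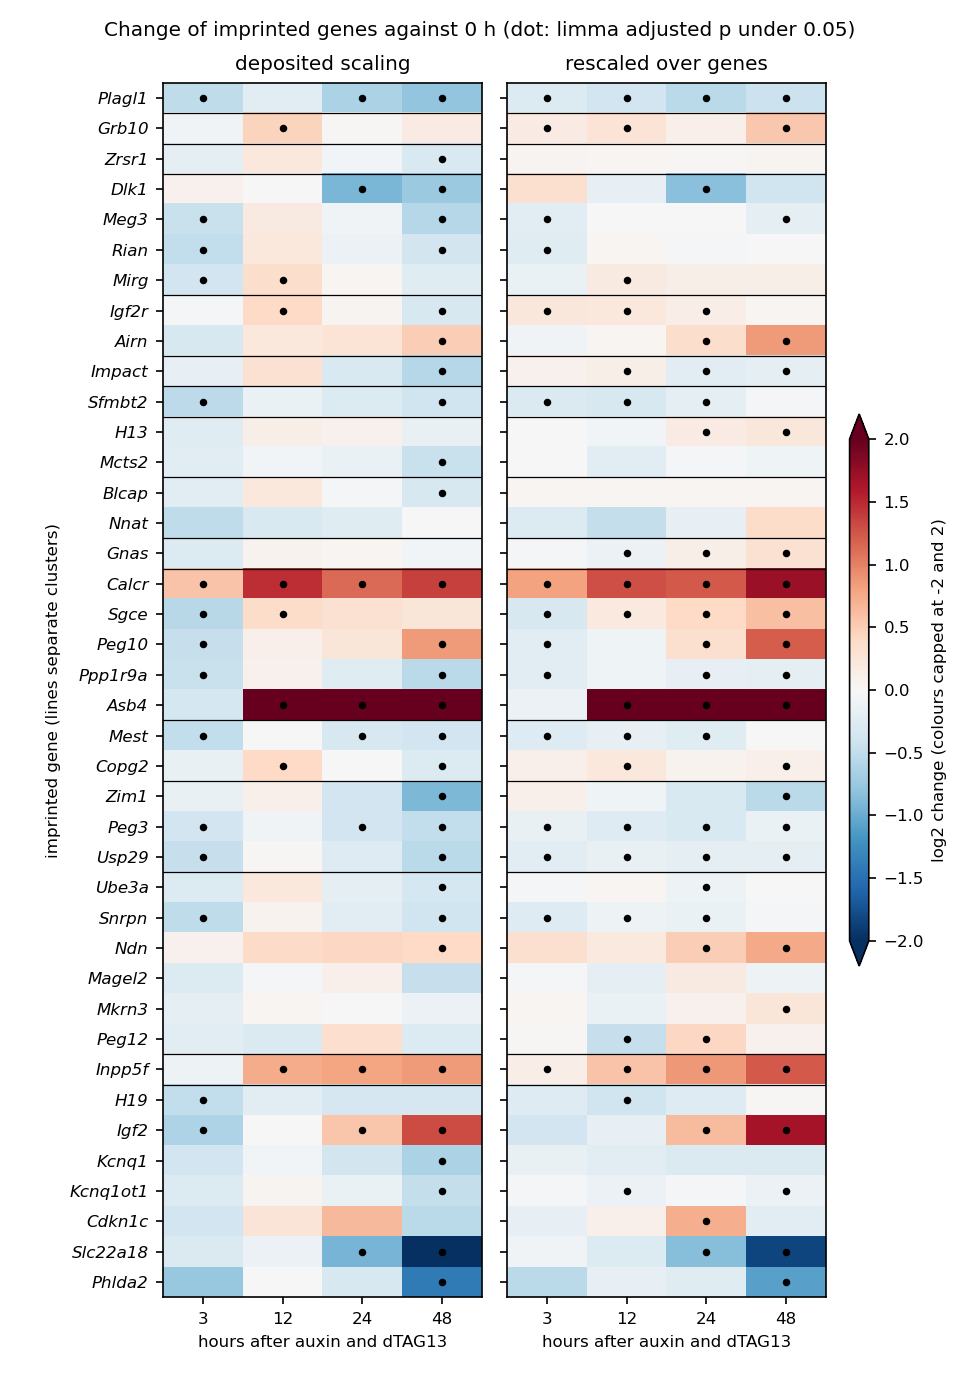
Log2 change against 0 h (colour, capped at -2 and 2) of the 40 tested imprinted genes (rows, ordered by position, with lines between clusters) at 3, 12, 24 and 48 h, under the deposited scaling (left) and after rescaling over genes (right); a dot marks a limma adjusted p under 0.05. Asb4, Calcr and Inpp5f carry dots from 12 h on in both panels, while most rows are pale blue after 48 h on the left and near white on the right.

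At the earlier times the calls depended on the scaling. At 3 h, 1 rose and 14 fell (0.636% and 13.5% of all genes), or 4 and 11 after rescaling (5.19% and 7.87%). By calls, the share that fell after 3 h, 35% deposited and 27.5% rescaled, was above the background under both scalings. By libraries it was not: 21 of the 40 genes (52.5%) had all 3 libraries below those at 0 h, against 53.5% of all genes. The median change after 3 h was -0.30 (all genes -0.24), or -0.068 rescaled (all genes 0.0031). Of the 14 calls, 1, that of Mest, was kept in every fit without a library. The number called fell to 3 without the second 0 h library and to 5 without the second 3 h library. At 12 h, 8 rose and none fell (12.9% and 2.07% of all genes), or 9 and 10 after rescaling (16.2% and 14.6%). Asb4, Calcr and Inpp5f kept their call after 12 h in every such fit; the other 5, Grb10, Mirg, Igf2r, Sgce and Copg2, did not, and 3 genes were called without the first or the third 0 h library or the second 12 h library, and 5 without the third 12 h library. At 24 h, 4 rose and 5 fell (7.21% and 12.2%), or 13 and 11 after rescaling (21.9% and 21.5%); without the second 24 h library 17 were called, and Asb4, Calcr, Inpp5f and Plagl1 kept their call in every such fit. Of the 40 genes, 33 were called at 1 or more times and 7 at none. The like share over all genes was not computed. At 48 h alone 7.65% of all genes rose and 58.4% fell, so this count is a description. In the authors' deposited table, Asb4 and Calcr were marked up at 12, 24 and 48 h, Igf2 up after 48 h, and Phlda2 and Slc22a18 down after 48 h, with no other imprinted gene marked. Of all genes that table marks 1.57%, 2.18% and 2.78% up at these times, and 5.02% down at the last.

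Ratios of 2 genes of 1 cluster within a library do not depend on the scaling between libraries. Of 14 pairs chosen for opposite imprinting or shared control, 13 could be computed, Rtl1 being too low. Between 0 h and 48 h the ratio rose without overlap in 4 pairs, fell without overlap in 2 and overlapped in 7. The like share over other pairs of genes was not computed, so these counts describe the chosen pairs only. With 3 libraries against 3, an exact two-sided permutation test cannot go below p = 0.10, which all 6 reached (adjusted p = 0.217 over the 13 pairs, exact permutation test), so none passes a threshold of 0.05.

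The log2 ratio of H19 to Igf2 was 0.88, 0.75 and 0.81 at 0 h and -0.82, -0.64 and -1.01 after 48 h. The sign of this ratio of scaled reads thus changed in all 3 libraries, with means of 0.81 ± 0.07 at 0 h, 0.93 ± 0.07 after 3 h, 0.58 ± 0.42 after 12 h, -0.08 ± 0.11 after 24 h and -0.82 ± 0.18 after 48 h (SD, n = 3). Per kb, H19 stood above Igf2 at both times, at 35.7 against 3.29 scaled reads per kb at 0 h and 28.6 against 8.22 after 48 h. Airn to Igf2r was -1.44, -1.35 and -1.57 at 0 h and -0.70, -0.66 and -0.57 after 48 h, a difference of 0.81. Peg10 rose relative to Ppp1r9a by 1.40, from -0.43, -0.46 and -0.46 to 0.98, 1.04 and 0.82. Relative to Sgce, Peg10 rose by 0.61. Peg3 to Zim1 rose by 0.40 and Mcts2 to H13 fell by 0.31. Snrpn to Ube3a was -0.74 ± 0.02 at 0 h, -0.97 ± 0.04 after 3 h, -0.87 ± 0.03 after 12 h and -0.79 ± 0.03 after 48 h, so it was lower after 3 h and 12 h than at either end. At the 2 end points Peg3 to Usp29 was 2.14 ± 0.06 and 2.18 ± 0.07 (SD, n = 3). Kcnq1ot1 to Cdkn1c was 7.95 ± 0.51 and 8.01 ± 0.21, and Meg3 to Dlk1 was 6.64 ± 0.22 and 6.81 ± 0.42, so their spread would hide a moderate difference.

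**Figure D5:**
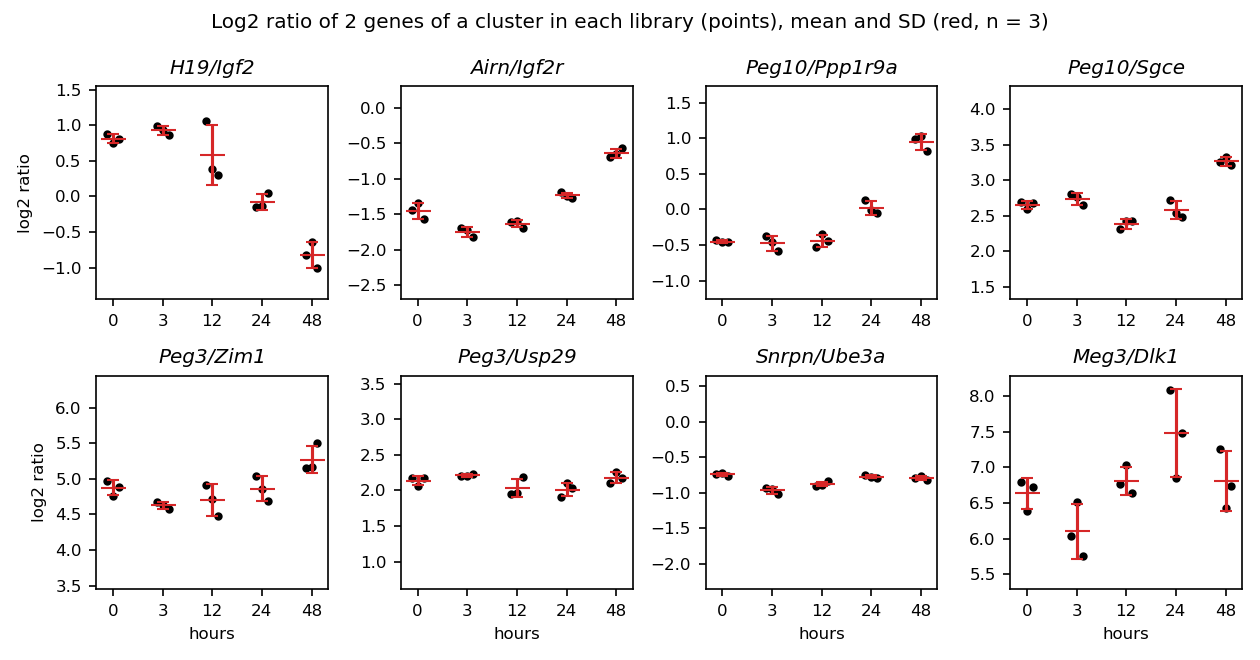
Log2 ratio of scaled reads (each + 1) of 2 genes of a cluster (vertical axes, all spanning the same range) in each of the 15 libraries (black points) by hours of treatment, with the mean and SD of the 3 libraries of a time in red. H19 to Igf2 falls from 0.81 to -0.82 and Airn to Igf2r rises from -1.45 to -0.64, while Peg3 to Usp29 ends at 2.18 from 2.14 and Snrpn to Ube3a at -0.79 from -0.74.

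Around the imprinted genes as a whole, within 100 kb, 57 other genes were tested after 48 h: 4 rose and 33 fell (7.65% and 58.4% of all genes), or 12 and 14 after rescaling (29.6% and 29.2%). Besides Pon2, Pdk4 and Igf2os, the fourth under the deposited scaling was Id1, an inhibitor of differentiation factors 27.6 kb from H13 (0.55, limma adjusted p = 0.00061). Of 62 repeat copies 12 rose and 7 fell, where 26% and 12.3% of all repeat copies did; rescaled, 12 and 2 (31.3% and 5.33% of all). Of 81 non-coding units 25 rose and 24 fell, where 29.3% and 39.4% of all did; rescaled, 28 and 15 (35.7% and 22%). The 12 were 8 copies of MMERVK10C-int, 2 of its long terminal repeat RLTR10C, 1 of IAPEz-int and 1 of IAPEy-int. Of 10 copies of MMERVK10C-int near imprinted genes 8 were tested, and copies that are near 0 at 0 h pass the filter on the mean through the late times, so the count is a description. Genome-wide, 610 of 1525 copies of that family were tested and 96.2% of those rose. They lay near Copg2 (5), Usp29 (3), Asb4 (2), Inpp5f (1) and Blcap (1): the nearest imprinted gene rose at 2 of the 5 places, Asb4 and Inpp5f. Near Copg2, the longest MMERVK10C-int copy, 33.7 kb upstream and on the other strand, went from 29.3, 32.4 and 12.9 scaled reads to 2316, 2588 and 2490, while Copg2 was at 1353, 1556 and 1439 before and 1142, 1222 and 1246 after.

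Genes of factors that place, read and erase the imprint had nascent signal throughout, which does not show a working protein. The list includes Suv39h2, -/- in the genotype. It had 1091 ± 72.9 scaled reads at 0 h and counts among those that fell (-0.44, limma adjusted p = 0.00112). The floxed Suv39h1 and Setdb1 are also in the list. Of 33 regulators tested, 3 rose and 23 fell after 48 h (7.65% and 58.4% of all genes), or 11 and 12 after rescaling (29.6% and 29.2%). Their median change was -0.36 (rescaled -0.0014), near that of all genes. Zfp57, the reader of the methylated hexamer, fell from 1841 ± 132 to 962 ± 27.6 scaled reads (-0.93, SE 0.13, limma adjusted p = 1.44e-12; -0.57 rescaled). Among the dioxygenases that oxidise methylcytosine, Tet2 fell by -1.44 (-1.08 rescaled) and Tet1 by -0.86 (-0.50 rescaled). The other one of that family, Tet3, stood at 0.20 with no call (adjusted p = 0.156), and at 0.56 rescaled, which was called up. Zfp42, a zinc finger gene that binds several imprinted genes, rose by 0.86 (1.22 rescaled).

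A further list of 46 genes reported as imprinted, some only in placenta or in single strains, gave 30 tested genes. After 48 h 5 of these rose and 19 fell (7.65% and 58.4% of all genes), or 9 and 9 after rescaling (29.6% and 29.2%). Those with the smallest adjusted p were Cobl, an actin nucleator next to Grb10, which fell from 3721 ± 259 to 816 ± 13.9 (-2.19), Ddc, the aromatic amino acid decarboxylase of the same region (-1.32), Smoc1 (-1.27) and Tnfrsf23, a decoy receptor gene next to the Kcnq1 domain, which rose from 22.3 ± 2.42 to 84.9 ± 11.6 (1.88; SD, n = 3). Rescaled, these changes were -1.82, -0.95, -0.91 and 2.24. Grb10 itself stood at 0.17 and was not called.

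Markers of cell state moved over the same hours, and their part in the changes of imprinted genes was not tested. Beside the counts that follow, 7.65% of all genes rose and 58.4% fell after 48 h, or 29.6% and 29.2% after rescaling. Of 8 embryonic stem cell markers 7 fell and 1 rose after 48 h under both scalings, Pou5f1 from 974 ± 29.9 to 461 ± 23.9 scaled reads, and the summed list went from 15565 to 17300 at 0 h to 10213 to 10675 after 48 h. The summed list of 8 genes of the 2-cell-like state went from 35.0 to 44.6 at 0 h to 1366 to 1618 after 48 h under the deposited scaling. The 8 fibroblast genes summed to 359 to 448 at 0 h and 457 to 617 after 48 h, with 5 up and 1 down of 7 tested under both scalings. The 9 trophectoderm genes summed to 1158 to 1179 and 1323 to 1630 (3 up, 3 down of 7; rescaled 4 and 1), the 8 of primitive endoderm to 2390 to 2760 and 2326 to 2525 (1 up, 1 down of 6; rescaled 4 and 1), and the 8 neural and mesoderm genes to 1110 to 1210 and 1140 to 1227 (2 up, 3 down of 7; rescaled 2 and 2). No gene of these 6 lists was at 0 in every library of 0 h or of 48 h.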

How the data were processed

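TT-seq libraries of 5 times with 3 repeats each were analysed; each was sequenced in 2 runs, so 30 GEO samples are 15 libraries. Per the submitters' processing notes, STAR 2.5.2a, DESeq2 and deepTools were used with mm10 (GRCm38). The deposited values are signal: reads that the authors scaled by 1 factor for each library, without regard to length, since 99.9972% to 99.9995% of values were whole multiples of a step (0.636 to 0.936 per read; tolerance 0.05), which gives whole reads back. A yeast spike-in (1 µg in 110 µg total RNA, per the labels' protocols) was added; whether the size factors rest on it is not shown by the values. The authors' second deposited table holds averaged signal per kb and calls of up or down; its averages matched those recomputed here. No source used here gives the counter, its strand setting, its treatment of multiple mapping or its annotation. Overlapping genes and individual copies of repeats are therefore uncertain. Few reads of Kcnq1ot1 were counted in Kcnq1, which holds it on the other strand, but other overlaps were not tested.

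limma 3.58.1 (intensity trend, R 4.3.3) was fitted to log2(value + 1) for 15261 genes with a mean of at least 10, with all 15 libraries in 1 fit; fold changes of low genes are understated by the pseudocount. Rescaling used the median of ratios over 17319 genes above 0 in every library. edgeR 4.0.16 and DESeq2 1.42.0 on the recovered reads, TMM, other filters and pseudocounts, fits of only the times compared, and leaving out each library were alternatives. The method was tested on simulated reads that varied independently between libraries, with no error shared by all genes of a library. The simulation thus does not cover errors of the scaling. Libraries are called biological repeats by the labels. Intervals and floors cover counting error only. Coordinates are 1-based, mm10. RefSeq promoters matched 36 of 43 genes; Rtl1, Sgce, Impact, Cdkn1c, H19, Kcnq1 and Peg10 did not match.

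The members and lists were chosen with earlier results of these data known. Values in every library at 0 h and 48 h are given for the 14 tested genes with the largest change among those called at any time and for H19, Kcnq1ot1, Airn and Meg3, and of each other list up to 4 genes with the smallest adjusted p at 48 h; values of Peg3, Usp29, Ppp1r9a, Igf2r, Cdkn1c, Ndn, Copg2, the untested genes, Pon2, Pdk4, Id1, Tet3, Pou5f1 and the repeat and non-coding units were chosen after they were seen.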

Additional observations from a re-analysis of the deposited data

How the results depend on the processing

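The scaling between libraries decided most directions of small changes. With the libraries rescaled over genes or by TMM, the number of imprinted genes called was 19 and 20 at 12 h and 24 and 25 at 24 h, and the median change was -0.068 and -0.072 at 3 h and 0.020 and 0.0077 at 48 h. Rescaled and with TMM, the direction at 48 h was reversed for Zrsr1 (0.056 and 0.044), Mirg (0.11 and 0.10), Igf2r (0.039 and 0.027), H13 (0.22 and 0.21), Blcap (0.034 and 0.022), Gnas (0.31 and 0.30), Copg2 (0.094 and 0.082), Ube3a (0.013 and 0.00073), Mkrn3 (0.25 and 0.23), Peg12 (0.084 and 0.072) and H19 (0.027 and 0.015). The change of Nnat was -0.0011 with edgeR and -0.0018 with DESeq2 on the recovered reads, and ran from -0.10 to 0.15 when 1 library was left out; the cause was not tested. Fitting only the 2 times compared gave 23 calls at 3 h, and limma without the trend gave 4 at 12 h, each with fewer samples or another spread model. Leaving out 1 library gave 3 to 17 calls at 3 h, from 3 to 11 at 12 h, from 6 to 17 at 24 h and from 21 to 29 at 48 h, and Nnat aside reversed no imprinted gene tested at 48 h. Pseudocounts of 0.5 and 5 and a minimum mean at 0 h changed no call of a named gene. Gene by gene, deviations of same-numbered libraries of different times were hardly correlated (-0.04 to 0.08 over 30 pairs). A correlation over genes cannot see an offset shared by all genes of a library. That offset on the log2 scale was highest in replicate 2 at 0, 12, 24 and 48 h (0.18, 0.45, 0.24 and -0.22). At 3 h replicate 2 was the lowest (-0.25). A pairing by replicate number is thus not excluded. With the replicate block 18, 9, 11 and 32 genes were called at the 4 times. Genes of few reads, such as Slc22a18 (18 reads at 48 h) and Dlk1 (37), are limited by depth.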
